A study of Mus musculus with 76 samples.

Results

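The cholesterol synthesis pathway was followed through 26 of the 38129 genes of the count table. They comprised 21 enzymes of the route between acetyl-CoA and cholesterol, its ketone body entry (Aacs) and its geranylgeranyl branch (Ggps1), 4 genes of the SREBP2 switch (Srebf2, Scap, Insig1 and Insig2) and 1 sterol carrier, Stard4. They were chosen by symbol as genes of the pathway or targets of SREBP2, and each matched 1 row. RNA-seq was carried out on mouse liver, heart and SCN, the suprachiasmatic nucleus of the hypothalamus, where the central clock sits. KO mice carried the genotype given as Bmal1-VIPKO, a central knockout of the clock gene Bmal1 (symbol Arntl) named after VIP, the neuropeptide of a set of SCN neurons, and WT mice were wild type. Each genotype was kept under time-restricted feeding (TRF) or fed ad libitum (AL), and tissue was taken at circadian time (CT) 12 or CT0, the start of the subjective night and of the subjective day. This made 24 groups, 8 per tissue, with 3 libraries in each and 4 in the TRF KO groups of liver and heart. The feeding hours, the ages and the driver of the knockout were not given in the sources used here. Nor do the labels say that the libraries of a group came from separate animals, so p-values measure the spread between these libraries.

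Cells make cholesterol from acetyl-CoA through mevalonate, isoprenoid units, squalene and lanosterol. SREBP2, the product of Srebf2, switches the genes of this route on when membrane sterols are low. It is held in the endoplasmic reticulum by its escort Scap and the anchors Insig1 and Insig2, and travels to the Golgi for cleavage once sterols fall. In liver, the organ that makes much of the circulating cholesterol and turns it into bile acids, the route is known to follow feeding and the clock.

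Promoter windows of 250 bases before an annotated start site (RefSeq, GRCm38.p6) were available for 22 of the 26 members, 28 windows in all. The core of the sterol response element that SREBP proteins bind was searched as TCACNCCAC, the CCAAT box of the SREBP partner NF-Y as CCAAT, and the E-box of clock factors as CACGTG, each on both strands. CCAAT was present in windows of 19 of the 22 members, in 19 of the 28 windows, against 33.85% of 32851 windows of all genes. The sterol response element core was matched in 1 member, Hmgcs1, and in 1 of the 28 windows, against 1.05% of all windows. The E-box was matched in 5 members (Dhcr7, Hsd17b7, Insig1, Sc5d and Scap) and in 5 of the 28 windows, against 6.02% of all windows. A match describes letters in the window and does not show binding. The windows below belong to members with large liver time differences (Hmgcs1, Mvd and Insig2) and to Sc5d, which holds both an E-box and a CCAAT box. They are printed 5′ to 3′ on the strand of the gene with matched letters in capitals, and end at the base before the start site. They are Hmgcs1 at chr13:119690101-119690350 (plus strand), Mvd at chr8:122443423-122443672 (minus strand), Insig2 at chr1:121332590-121332839 (minus strand, 1 of its 3 windows) and Sc5d at chr9:42264301-42264550 (minus strand).
Hmgcs1: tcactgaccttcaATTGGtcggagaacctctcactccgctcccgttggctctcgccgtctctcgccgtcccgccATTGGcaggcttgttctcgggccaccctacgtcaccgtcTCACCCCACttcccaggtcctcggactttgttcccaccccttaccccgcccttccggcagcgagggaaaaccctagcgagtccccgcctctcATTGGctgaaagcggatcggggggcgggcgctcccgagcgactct
Mvd: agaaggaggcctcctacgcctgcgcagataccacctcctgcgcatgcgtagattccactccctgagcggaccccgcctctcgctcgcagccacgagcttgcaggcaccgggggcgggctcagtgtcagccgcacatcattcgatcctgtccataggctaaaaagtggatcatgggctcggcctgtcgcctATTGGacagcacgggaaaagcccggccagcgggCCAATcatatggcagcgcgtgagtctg
Insig2: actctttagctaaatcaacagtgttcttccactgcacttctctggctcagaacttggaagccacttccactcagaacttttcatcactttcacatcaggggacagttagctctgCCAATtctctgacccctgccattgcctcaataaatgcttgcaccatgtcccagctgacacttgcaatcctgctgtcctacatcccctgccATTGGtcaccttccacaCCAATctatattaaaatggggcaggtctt
Sc5d: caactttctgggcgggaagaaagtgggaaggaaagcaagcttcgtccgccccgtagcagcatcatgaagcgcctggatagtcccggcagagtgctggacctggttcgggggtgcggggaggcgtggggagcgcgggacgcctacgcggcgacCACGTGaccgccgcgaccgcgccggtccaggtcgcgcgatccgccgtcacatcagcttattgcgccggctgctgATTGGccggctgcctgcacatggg
In the Hmgcs1 window the sterol response element core, TCACCCCAC, begins 137 bases before the start site and lies between CCAAT boxes that read ATTGG on this strand. The Mvd window holds 2 CCAAT boxes and the printed Insig2 window 3, while the other windows of Insig2 hold no match to any of the motifs. In the Sc5d window the E-box begins 98 bases before the start site.

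The 76 libraries held 13502014 to 19018983 counts each, and levels are given as CPM, read counts scaled to a common library size by TMM factors. Alb reached 64200 to 102810 CPM in every liver library and Myh6 22093 to 48746 CPM in every heart library, while in SCN libraries Avp ranged over 10.2 to 1334 CPM and Vip over 0 to 17.7 CPM. In each AL group, 1 library has a title number of 3 digits, where the others have 1 or 2. In liver and heart its counts lay closest to those of another library of its group (38, 47, 56 and 65), with a median chi-square per gene of 0.634 to 0.975, where sampling noise alone gives 0.455 and pairs of a group without a 3-digit number gave 1.00 or more in heart and 1.18 or more in liver. In AL KO livers the 3-digit library was also near the remaining library of its group, at 1.17 (CT0) and 1.13 (CT12). The 2 other libraries of these groups lay at 2.11 and 1.7 from each other. In AL WT livers the remaining library was farther from it, at 3.4 and 4.15. In liver the 3-digit library held the middle of the 3 values in 41.9% to 51.1% of genes. The share was 37.9% to 53.1% in heart and 25.5% to 30.5% in SCN. Among the members in liver this library held the middle value for 19 of 26 in AL WT at CT0 and 13 at CT12. In AL KO it was so for 23 at CT0 and 21 at CT12. A distance above sampling noise does not show whether the 2 libraries of such a pair came from separate animals. They were counted as separate libraries, and results were also computed without those of 3 digits. The heart AL WT libraries at CT12 held brain transcripts, which are described with the heart results. In whole tissue, fewer cells of a type and less RNA per cell cannot be told apart.

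Per kilobase of exon, the highest median level of a member in liver was that of Insig1 (188 CPM per kb over 26 libraries), followed by Ebp (118 CPM per kb), Sc5d (96.6), Insig2 (65.9), Hmgcs1 (58.9) and Pmvk (57.8). Ggps1, which makes geranylgeranyl diphosphate for protein prenylation, was lowest with 1.22 CPM per kb. In heart the highest was Insig2 with 15.7 CPM per kb and in SCN Srebf2 with 46.4 CPM per kb, against 13.8 CPM per kb of Srebf2 in liver and 5.64 CPM per kb in heart. The spread over libraries differed between members and tissues. In liver the highest library exceeded the lowest 14.2 times for Mvd, 13.4 times for Hmgcs1, 11.9 times for Aacs and 11.7 times for Idi1, but 1.64 times for Ebp. In SCN this ratio lay between 1.22 (Scap) and 2.72 (Fdps). Fdps and Tm7sf2 share 26.7% and 12.1% of their exonic bases with a gene on the same strand. Fdft1 shares 18.3% and Hmgcs1 12.1% with a gene on the opposite strand, and Scap, Idi1 and Lbr share 13.2%, 9.2% and 9.2% with such a gene. The strand setting of the counting and the handling of reads in shared bases were not given. Levels of these 7 members may therefore include reads of the neighbour or lack reads that were left uncounted. Acat2 has a near copy, Acat3, and its counts are uncertain for that reason.

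In liver, the members were mostly higher at CT12 under TRF and mostly lower at CT12 in AL WT livers. Under TRF, 20 of 26 members rose at CT12 in KO livers (edgeR quasi-likelihood test, Benjamini-Hochberg adjusted p below 0.05) and 0 fell, where 10.5% of all genes tested rose and 11.5% fell. In TRF WT livers 13 rose and 1 fell, against 11% and 12.1% of all genes. In AL KO livers 0 were called by edgeR or by DESeq2 and 1 had an unadjusted p under 0.05 (5.7% of all genes), against 0.0139% of all genes called. In AL WT livers the direction was opposite to that under TRF, with 17 members lower at CT12 and 0 higher by edgeR (19 called by DESeq2; 21 lower and 0 higher at an unadjusted p under 0.05, against 11.2% and 11.2% of all genes), against 8.99% of all genes called, 4.54% lower and 4.45% higher. The median log2 difference of the members was 0.94 in TRF KO, 0.62 in TRF WT, -0.11 in AL KO and -0.77 in AL WT livers, while that over all genes tested lay between -0.01 and 0.03. Without the 3-digit libraries 19, 14, 0 and 5 members were called in these comparisons. The AL WT count was 11 without library 38, without library 47 and without the 3-digit library of CT12.

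**Figure D1:**
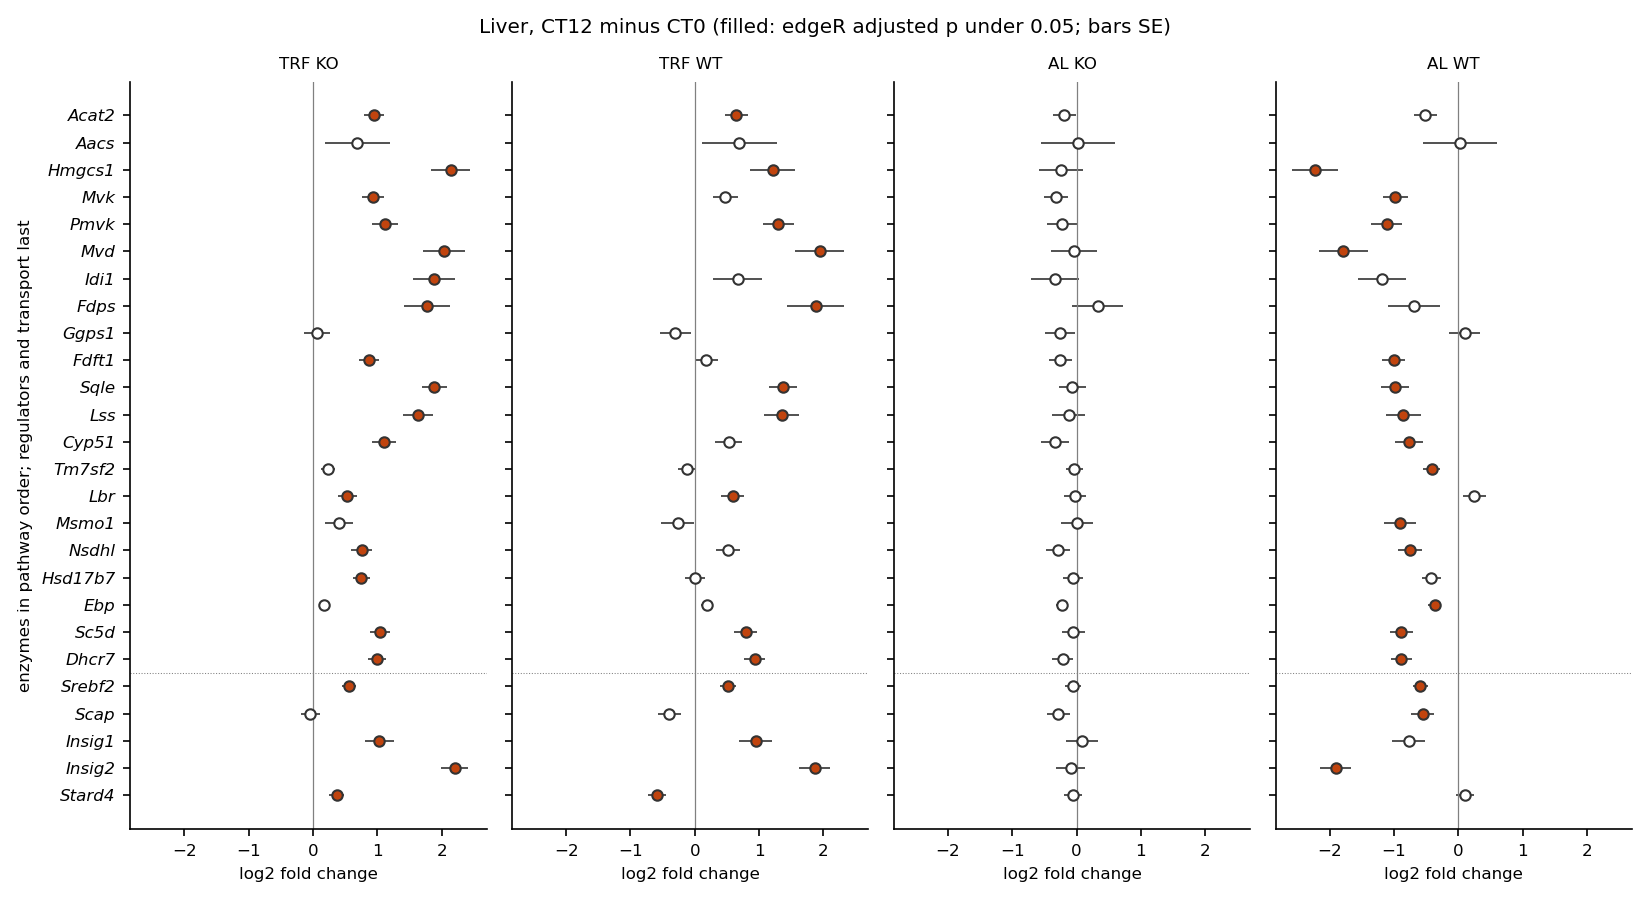
Log2 difference of each of the 26 members in liver, CT12 minus CT0, with 1 panel per feeding and genotype; points are edgeR estimates, bars are standard errors and filled points are called. In TRF KO, 20 filled points lie right of 0 and in AL WT 17 lie left of 0, while the AL KO panel holds none.

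Single libraries were also compared for overlap. All CT12 libraries exceeded all CT0 libraries for 17 members in TRF KO and 15 in TRF WT, where this was so for 8.98% and 16.6% of all genes. All CT12 libraries were below all CT0 libraries for 2 members in TRF WT, 2 in AL KO and 22 in AL WT, where this was so for 16.9%, 9.93% and 14.4% of all genes. The 4 members that overlapped in AL WT were Aacs, Ggps1, Lbr and Stard4. Summed over the 21 enzymes, TRF KO livers held 4213, 3119, 4810 and 5112 CPM at CT12 and 2191, 2475, 2391 and 1733 CPM at CT0. In TRF WT livers the sum was 2173, 2693 and 2371 CPM at CT12, against 1431, 1938 and 1460 CPM at CT0. Under AL, KO livers held 3726, 4769 and 4133 CPM at CT12 and 5215, 4061 and 4756 CPM at CT0, and WT livers 1979, 1864 and 1897 CPM at CT12 and 3325, 3143 and 3286 CPM at CT0. The sums at the 2 times overlapped in AL KO and were separate in the other 3 settings.

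Markers of other liver cells moved with time in some of these groups. Their summed level over 10 genes was 247 to 397 CPM in TRF KO at CT12 and 201 to 268 CPM at CT0, with 3 of 10 called higher at CT12 (Ptprc, Adgre1 and Dcn). In TRF WT it was 272 to 343 CPM at CT12 and 175 to 209 CPM at CT0, with 4 of 10 called higher (Pecam1, Kdr, Krt19 and Dcn). In AL KO it was 226 to 283 CPM at CT12 and 286 to 326 CPM at CT0, and in AL WT 226 to 247 CPM at CT12 and 232 to 264 CPM at CT0, with 0 of 10 called in AL WT. Of 3 red cell genes (Hbb-bs, Hba-a1 and Alas2), 2 were called lower at CT12 in AL WT, where their sum was 158 to 172 CPM at CT12 and 216 to 226 CPM at CT0; 1 was lower in TRF WT (Alas2) and 0 in TRF KO and AL KO. Of the 3 genes used as neuron markers, Snap25 reached at most 0.193 CPM in a liver library, and Syt1, which made up most of their sum, was called lower at CT12 in TRF KO and TRF WT. That sum was 5.01 to 13.4 CPM at CT12 and 22.6 to 38.7 CPM at CT0 in TRF KO, 3.24 to 7.27 and 25.3 to 33.6 CPM in TRF WT, and 11.0 to 17.0 and 8.46 to 10.8 CPM in AL WT, with 0 called in AL WT. The part of these markers in the member differences was not tested.

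The first enzymes of the route supply and use acetoacetyl-CoA. Acat2, the cytosolic thiolase that makes it, rose at CT12 in TRF KO livers (log2 0.95 ± 0.15, edgeR adjusted p 8.97e-05) and in TRF WT livers (log2 0.64 ± 0.18, edgeR adjusted p 0.0113; lost without library 1, edgeR adjusted p 0.0703) and was not called under AL. Aacs, which forms acetoacetyl-CoA from ketone bodies, ranged widely between libraries and was called in no liver time comparison. Hmgcs1, which condenses acetoacetyl-CoA with acetyl-CoA to HMG-CoA, had the largest fall of any member in AL WT. It measured 306, 337, 536 and 639.9 CPM at CT12 in TRF KO livers, against 140.3, 96.2, 104 and 72.4 CPM at CT0, a difference of log2 2.14 ± 0.31, edgeR adjusted p 4.31e-05. In TRF WT it measured 97.1, 264 and 108 CPM at CT12 and 58.2, 92.8 and 51.6 CPM at CT0 (log2 1.21 ± 0.35, edgeR adjusted p 0.0166), where a single CT12 library of 264 CPM stood above the rest and the call was lost without library 1, 3 or 11, edgeR adjusted p 0.0721 to 0.171. In AL KO all libraries were high, with 432, 548 and 479 CPM at CT12 and 693, 443 and 591 CPM at CT0 (log2 -0.24 ± 0.34, edgeR adjusted p 0.997). In AL WT it measured 77.8, 51.9 and 76.3 CPM at CT12 and 348, 277 and 341 CPM at CT0 (log2 -2.23 ± 0.36, edgeR adjusted p 3.54e-04). The CT12 and CT0 libraries were apart in TRF KO, TRF WT and AL WT, and overlapped in AL KO.

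**Figure D2:**
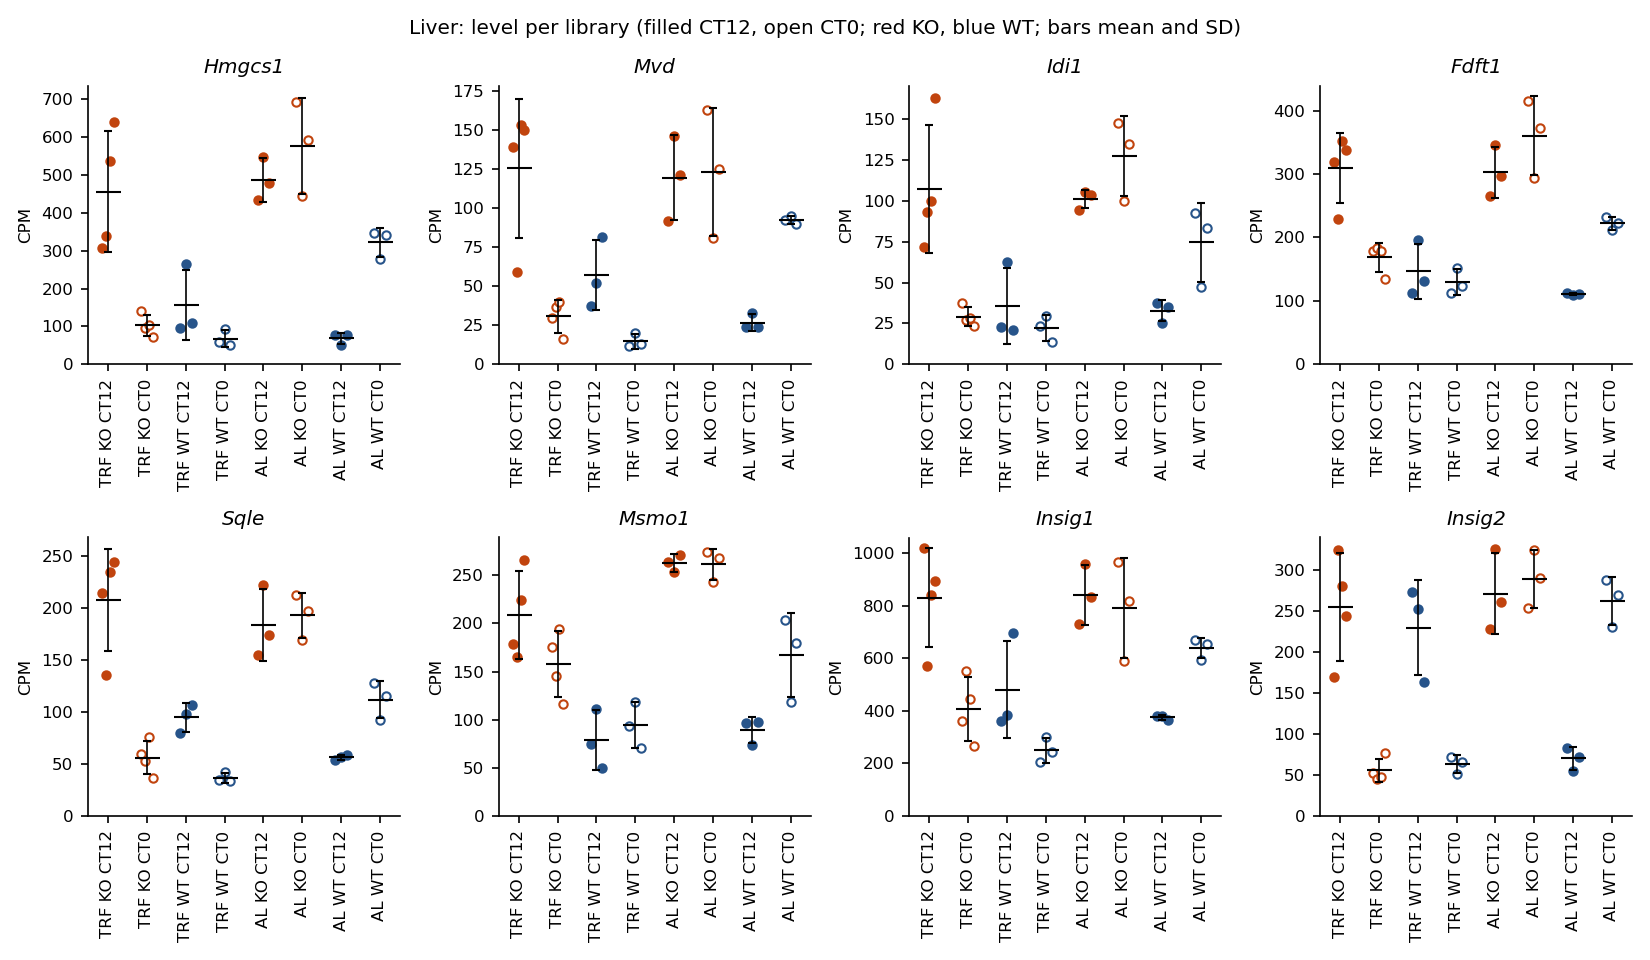
CPM per liver library of Hmgcs1, Mvd, Idi1, Fdft1, Sqle, Msmo1, Insig1 and Insig2 in the 8 liver groups; filled points are CT12 and open points CT0, red is KO and blue WT, and bars give mean and SD. For Hmgcs1 the AL WT points at CT12, 51.9 to 77.8 CPM, lie below all AL KO points, which are 432 CPM or more.

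Mevalonate is phosphorylated by Mvk and Pmvk and decarboxylated by Mvd to isopentenyl diphosphate. Pmvk rose in TRF KO (log2 1.12 ± 0.21, edgeR adjusted p 3.55e-04) and TRF WT (log2 1.30 ± 0.24, edgeR adjusted p 4.79e-04) and fell in AL WT (log2 -1.11 ± 0.24, edgeR adjusted p 0.00391). Mvk rose in TRF KO (log2 0.94) and fell in AL WT (log2 -0.98). Mvd had the largest rise of any member in TRF WT. It measured 139, 59.1, 153 and 150.2 CPM at CT12 in TRF KO livers and 29.8, 36.5, 40.2 and 16.1 CPM at CT0 (log2 2.03 ± 0.33, edgeR adjusted p 1.40e-04). In TRF WT livers it measured 37.5, 52.1 and 81.3 CPM at CT12 and 11.5, 20.2 and 12.8 CPM at CT0 (log2 1.94 ± 0.38, edgeR adjusted p 0.0012). These groups did not overlap, although 1 TRF KO library at CT12 (59.1 CPM) was far below the other 3. With AL feeding, KO livers held 91.5, 146 and 121 CPM at CT12 and 163, 80.9 and 125 CPM at CT0, and WT livers 23.9, 32.9 and 23.6 CPM at CT12 and 92.3, 95.1 and 89.6 CPM at CT0 (log2 -1.78 ± 0.38, edgeR adjusted p 0.00425). The AL WT calls of Mvk, Pmvk and Mvd were lost without the 3-digit libraries, edgeR adjusted p 0.0614 to 0.101.

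Idi1, the isomerase of the isoprenoid units, was higher at CT12 in TRF KO livers, with 71.6, 93.5, 100.2 and 163 CPM against 37.3, 27.1, 28.4 and 23.4 CPM at CT0 (log2 1.88 ± 0.33, edgeR adjusted p 3.50e-04). TRF WT livers held 22.9, 62.5 and 21.3 CPM at CT12 and 23.7, 29.5 and 13.8 CPM at CT0, which overlapped. AL KO livers held 94.7, 105 and 103 CPM at CT12 and 147, 100.1 and 135 CPM at CT0. In AL WT livers it measured 37.6, 25.4 and 35.2 CPM at CT12 and 92.8, 47.1 and 83.6 CPM at CT0; these did not overlap but were not called (log2 -1.19 ± 0.38, edgeR adjusted p 0.0537). Fdps, which joins the units to farnesyl diphosphate, rose in TRF KO (log2 1.77) and TRF WT (log2 1.88) and was not called under AL. Ggps1, off the sterol route, was called in no liver comparison.

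Fdft1 (squalene synthase) commits farnesyl diphosphate to sterols. It measured 319, 229, 352 and 337 CPM at CT12 in TRF KO livers and 178, 183, 179 and 134 CPM at CT0 (log2 0.87 ± 0.16, edgeR adjusted p 2.33e-04). In TRF WT livers it overlapped between times, with 112, 195 and 132 CPM at CT12 and 113, 152 and 123 CPM at CT0, and its log2 difference was 0.18, not called. Under AL, KO livers held 266, 345 and 297 CPM at CT12 and 416, 293 and 373 CPM at CT0, and WT livers 113, 109 and 110.2 CPM at CT12 and 232, 212 and 223 CPM at CT0 (log2 -1.01 ± 0.18, edgeR adjusted p 6.53e-04). Fdft1 was 1 of the 5 members still called in AL WT without the 3-digit libraries, beside Hmgcs1, Sc5d, Dhcr7 and Insig2.

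Sqle, the oxygen-using epoxidase that follows, rose under TRF in both genotypes. TRF KO livers held 215, 136, 235 and 244 CPM at CT12 and 59.3, 52.3, 75.5 and 36.7 CPM at CT0 (log2 1.89 ± 0.19, edgeR adjusted p 1.87e-07), and TRF WT livers 79.4, 97.7 and 107 CPM at CT12 and 34.1, 42.3 and 33.6 CPM at CT0 (log2 1.37 ± 0.22, edgeR adjusted p 1.00e-04). All CT12 libraries were above all CT0 libraries of their genotype. AL KO livers held 155, 222 and 174 CPM at CT12 and 212, 169 and 197 CPM at CT0. AL WT livers held 53.9, 56.9 and 58.3 CPM at CT12 and 127, 92.0 and 115 CPM at CT0 (log2 -0.99 ± 0.21, edgeR adjusted p 0.00431). This AL WT call was lost without the 3-digit libraries, edgeR adjusted p 0.0904. Lss, which closes the ring to lanosterol, rose in TRF KO (log2 1.63) and TRF WT (log2 1.35) and fell in AL WT (log2 -0.85; lost without library 38, 39, 47, 48 or a 3-digit library, edgeR adjusted p 0.1 to 0.153).

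The steps after lanosterol trim methyl groups and move double bonds. Cyp51, the lanosterol demethylase, measured 221, 224, 316 and 358 CPM at CT12 in TRF KO livers and 159, 107, 122 and 132 CPM at CT0 (log2 1.10 ± 0.18, edgeR adjusted p 1.31e-04). In TRF WT it measured 107, 204 and 116 CPM at CT12 and 93.4, 119 and 83.4 CPM at CT0, which overlapped. With AL feeding, KO livers held 237, 286 and 254 CPM at CT12 and 361, 286 and 333 CPM at CT0, and WT livers 114, 111 and 119 CPM at CT12 and 207, 164 and 215 CPM at CT0 (log2 -0.77 ± 0.21, edgeR adjusted p 0.0233; lost without library 38, 47, 48 or a 3-digit library, edgeR adjusted p 0.0639 to 0.0921). Tm7sf2 and Lbr both reduce the sterol formed by Cyp51. Tm7sf2 fell in AL WT (log2 -0.41; lost without library 38, 39, 47, 48 or a 3-digit library, edgeR adjusted p 0.0588 to 0.194) and was called in no other time comparison, while Lbr, also the lamin receptor of the nuclear envelope, rose in TRF KO (log2 0.54) and TRF WT (log2 0.59; lost without library 1, 3 or 11, edgeR adjusted p 0.0628 to 0.0921).

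Msmo1, Nsdhl and Hsd17b7 remove the remaining methyl groups. Msmo1 measured 179, 165, 225 and 266 CPM at CT12 in TRF KO livers and 175, 146, 194 and 116 CPM at CT0 (log2 0.40 ± 0.22, edgeR adjusted p 0.198), and 75.0, 111 and 49.2 CPM at CT12 in TRF WT livers and 93.3, 119 and 70.6 CPM at CT0 (log2 -0.26 ± 0.25, edgeR adjusted p 0.482). It was called in neither, and its libraries overlapped between times in both genotypes. AL KO livers held 264, 253 and 271 CPM at CT12 and 274, 243 and 268 CPM at CT0. AL WT livers held 96.8, 73.6 and 97.4 CPM at CT12 and 203, 118 and 179.8 CPM at CT0 (log2 -0.90 ± 0.25, edgeR adjusted p 0.0266; lost without library 38, 47, 48 or a 3-digit library, edgeR adjusted p 0.0614 to 0.119). Nsdhl rose in TRF KO (log2 0.76) and fell in AL WT (log2 -0.75; lost without library 38 or 48, edgeR adjusted p 0.0554 to 0.0597), and Hsd17b7 rose in TRF KO alone of the 4 (log2 0.75). The AL WT call of Nsdhl was also lost without the 3-digit libraries, edgeR adjusted p 0.155.

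The last steps are carried out by Ebp (an isomerase), Sc5d (a desaturase) and Dhcr7, the reductase that forms cholesterol from its last precursor. Dhcr7 measured 257, 197, 294 and 250.3 CPM at CT12 in TRF KO livers and 111, 151, 148 and 90.1 CPM at CT0 (log2 1.00 ± 0.14, edgeR adjusted p 1.78e-05), and 152, 198 and 147 CPM at CT12 in TRF WT livers and 84.1, 97.7 and 79.1 CPM at CT0 (log2 0.93 ± 0.16, edgeR adjusted p 2.65e-04). Under AL, KO livers held 201, 247 and 231 CPM at CT12 and 283, 245 and 260.5 CPM at CT0, and WT livers 109, 93.9 and 95.9 CPM at CT12 and 189, 178 and 187 CPM at CT0 (log2 -0.89 ± 0.16, edgeR adjusted p 8.10e-04). The times were apart for Dhcr7 in TRF KO, TRF WT and AL WT. Sc5d rose in TRF KO (log2 1.05) and TRF WT (log2 0.79) and fell in AL WT (log2 -0.89). Ebp fell in AL WT (log2 -0.37; lost without library 39, 47 or a 3-digit library, edgeR adjusted p 0.0577 to 0.0893).

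Among the regulators, Srebf2, the gene of SREBP2 itself, rose under TRF in both genotypes and fell in AL WT livers. Srebf2 measured 129, 109, 135 and 114 CPM at CT12 in TRF KO livers and 82.8, 92.1, 87.5 and 69.2 CPM at CT0 (log2 0.56 ± 0.11, edgeR adjusted p 4.14e-04), and 117, 90.8 and 103 CPM at CT12 in TRF WT livers and 68.6, 73.8 and 74.5 CPM at CT0 (log2 0.52 ± 0.12, edgeR adjusted p 0.00326). With AL feeding, KO livers held 106, 113 and 115 CPM at CT12 and 119, 113 and 115 CPM at CT0, and WT livers 59.5, 75.0 and 59.9 CPM at CT12 and 85.3, 112 and 95.4 CPM at CT0 (log2 -0.59 ± 0.12, edgeR adjusted p 0.00254). The AL WT call of Srebf2 was lost without the 3-digit libraries, edgeR adjusted p 0.0904. Scap, the escort of SREBP2, fell in AL WT (log2 -0.55; lost without library 38, 39, 47 or a 3-digit library, edgeR adjusted p 0.0543 to 0.226) and was not called in the other 3 settings.

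Both anchors, Insig1 and Insig2, rose at CT12 under TRF; a difference between the 2 genes was not tested. Insig1 measured 1019, 572, 842 and 893 CPM at CT12 in TRF KO livers and 363, 553, 446 and 264 CPM at CT0 (log2 1.03 ± 0.22, edgeR adjusted p 0.00161), and 362, 384 and 695 CPM at CT12 in TRF WT livers and 204, 300.5 and 243 CPM at CT0 (log2 0.95 ± 0.26, edgeR adjusted p 0.00984; lost without library 1 or 12, edgeR adjusted p 0.0596 to 0.115). Under AL, KO livers held 729, 959 and 834 CPM at CT12 and 967, 592 and 818 CPM at CT0, and WT livers 381, 379.7 and 364 CPM at CT12 and 670.1, 595 and 653 CPM at CT0 (log2 -0.77 ± 0.25, edgeR adjusted p 0.061, not called). Insig2 had the largest rise of any member in TRF KO, with 169, 325, 279.9 and 244 CPM at CT12 and 52.9, 44.4, 47.9 and 76.4 CPM at CT0 (log2 2.20 ± 0.21, edgeR adjusted p 1.09e-07). In TRF WT livers it measured 273, 252 and 164 CPM at CT12 and 72.3, 51.3 and 65.9 CPM at CT0 (log2 1.86 ± 0.24, edgeR adjusted p 8.73e-06). With AL feeding, KO livers held 228, 325 and 261 CPM at CT12 and 253, 324 and 291 CPM at CT0, and WT livers 83.3, 55.3 and 71.6 CPM at CT12 and 288, 230.0 and 269.6 CPM at CT0 (log2 -1.91 ± 0.24, edgeR adjusted p 1.11e-05). Insig2 is known to respond less to SREBP2 than Insig1 does. Stard4, which carries sterols between membranes, rose at CT12 in TRF KO livers and was the 1 member that fell in TRF WT livers. It measured 124, 139, 175 and 154 CPM at CT12 in TRF KO livers and 114, 109, 138 and 97.5 CPM at CT0 (log2 0.37 ± 0.12, edgeR adjusted p 0.0269), a call lost without library 20, 30, 55 or 64, edgeR adjusted p 0.0573 to 0.094, and also lost without the 3-digit libraries. In TRF WT livers it measured 67.5, 65.0 and 70.0 CPM at CT12 and 91.6, 125 and 88.1 CPM at CT0 (log2 -0.59 ± 0.14, edgeR adjusted p 0.0032). Under AL, KO livers held 138, 161 and 145 CPM at CT12 and 153, 153 and 155 CPM at CT0, and WT livers 121, 97.7 and 121 CPM at CT12 and 108, 98.5 and 108 CPM at CT0.

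Between genotypes, KO livers held more transcript of the pathway than WT livers at CT12. Of the 26 members, 15 were higher and 0 lower in KO livers under TRF at CT12, where 2.31% of all genes were higher and 1.99% lower (4.31% in either direction). Under TRF at CT0, 0 were called by edgeR (3 by DESeq2; 15 at an unadjusted p under 0.05 and 15.6% of all genes), against 1.39% of all genes (0.618% higher and 0.771% lower). Under AL at CT12, 21 were higher and 0 lower, against 7.13% and 6.45% of all genes. Under AL at CT0, 7 were higher and 0 lower (10 called by DESeq2; 18 at an unadjusted p under 0.05 and 21% of all genes), against 2.8% and 2.62% of all genes (5.42% in either direction). The median log2 difference of the members, KO minus WT, was 0.78 (TRF CT12), 0.40 (TRF CT0), 1.17 (AL CT12) and 0.53 (AL CT0). The AL count at CT12 was 16 without the 3-digit libraries, but that at CT0 was 0 without them, 0 without library 38, 39 or 56 or either 3-digit library, and 3 without library 57. The TRF count at CT12 was 8 without library 12 and 1 when the 2 compared groups were fitted alone, and that at CT0 was 1 without library 2 and 2 without library 55.

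**Figure D3:**
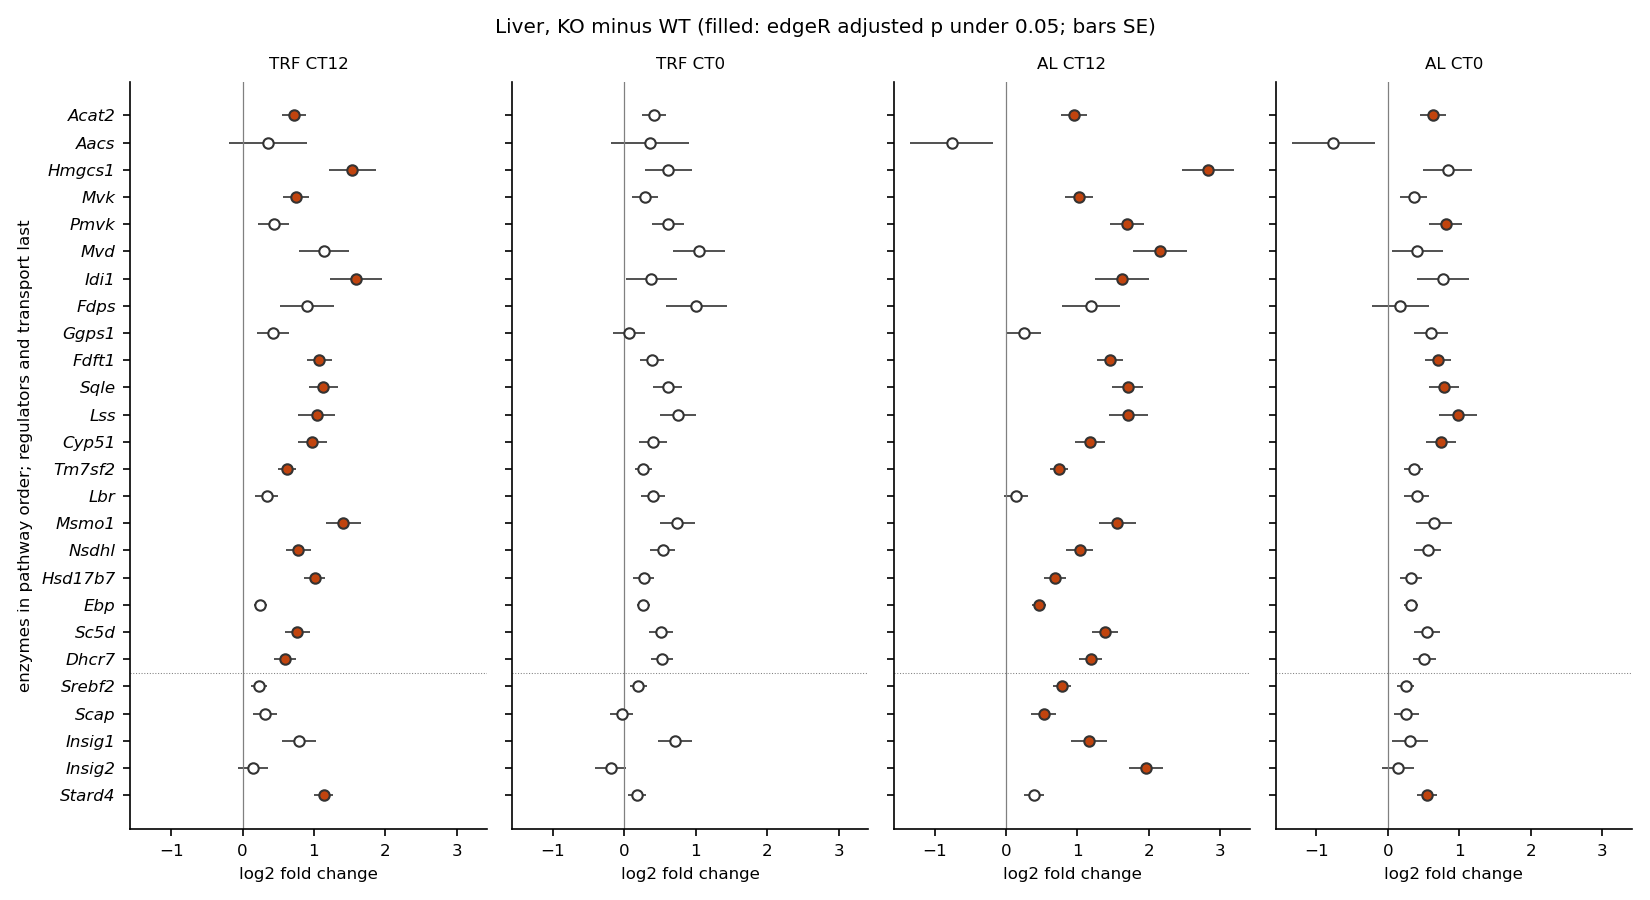
Log2 difference of each member in liver, KO minus WT, with 1 panel per feeding and time; points are edgeR estimates, bars are standard errors and filled points are called. Filled points number 15 under TRF at CT12, 0 under TRF at CT0, 21 under AL at CT12 and 7 under AL at CT0, and all lie right of 0.

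Hmgcs1 averaged 455 ± 160.0 CPM in TRF KO livers at CT12 (SD, n = 4) and 156 ± 93.4 CPM in TRF WT livers (SD, n = 3; log2 1.54 ± 0.34, edgeR adjusted p 0.0128), and no library of KO fell as low as the highest of WT. Under AL at CT12 it averaged 486 ± 58.3 CPM in KO and 68.7 ± 14.5 CPM in WT livers (SD, n = 3 each; log2 2.82 ± 0.37, edgeR adjusted p 4.10e-05), the largest genotype difference among the members called. Idi1 had the largest difference under TRF at CT12, with 107 ± 39.1 CPM in KO livers (SD, n = 4) and 35.5 ± 23.4 CPM in WT livers (SD, n = 3; log2 1.59 ± 0.36, edgeR adjusted p 0.0167). The TRF call of Hmgcs1 was lost without library 12, edgeR adjusted p 0.0863, and that of Idi1 was lost without library 10 or 12, edgeR adjusted p 0.0539 to 0.102. Msmo1, not called over time under TRF, was higher in KO livers at TRF CT12 (log2 1.41 ± 0.25, edgeR adjusted p 0.00293) and at AL CT12 (log2 1.56 ± 0.26, edgeR adjusted p 3.47e-04). Mvd and Insig2 differed under AL at CT12 (log2 2.16 and 1.95) but were not called under TRF at CT12 (log2 1.14, edgeR adjusted p 0.0654, and log2 0.15, edgeR adjusted p 0.731). Stard4 had the firmest call under TRF at CT12, with 148 ± 22.0 CPM in KO livers (SD, n = 4) and 67.5 ± 2.52 CPM in WT livers (SD, n = 3; log2 1.13 ± 0.13, edgeR adjusted p 3.40e-05), and it kept that call under every alternative tried.

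Under AL at CT0 the members called were Lss (log2 0.98), Pmvk (0.81), Sqle (0.79), Cyp51 (0.74), Fdft1 (0.70), Acat2 (0.63) and Stard4 (0.55). All KO libraries exceeded all WT libraries for 12 members under TRF at CT12 (5.65% of all genes), 2 under TRF at CT0 (7.79%), 23 under AL at CT12 (19.9%) and 18 under AL at CT0 (15.8%). They lay below all WT libraries for 1 member under AL at CT12 (18.9%), 1 under AL at CT0 (15.9%) and 0 under TRF at either time. The lowest log2 difference of a member was -0.763 under AL at CT12 and -0.765 under AL at CT0. With the compared groups alone, 1 member was called lower in KO at each of these AL times. Of the 10 markers of other liver cells, 2 were higher in KO under AL at CT0 (Lrat and Dcn), 0 at either feeding at CT12 and 2 under TRF at CT0 (Kdr and Dcn). Of the 3 red cell genes, 2 were higher (Hbb-bs and Hba-a1) and Alas2 lower in KO under AL at CT12, and Alas2 was lower under AL at CT0, with a sum of 167 to 212 CPM in KO and 158 to 172 CPM in WT at CT12 and 149 to 179 CPM in KO and 216 to 226 CPM in WT at CT0. The summed level of the hepatocyte genes Alb, Apoa1, Ttr and Cyp2e1 was 109540 to 125650 CPM in KO and 90754 to 111020 CPM in WT under TRF at CT12, 111040 to 126970 and 87499 to 99966 CPM under TRF at CT0, 102690 to 113050 and 89400 to 94004 CPM under AL at CT12, and 113560 to 117020 and 85323 to 89350 CPM under AL at CT0. KO and WT were apart in the last 3 of these 4, and Cyp2e1 was called higher under TRF at CT12 and Alb and Cyp2e1 under AL at CT0. The part of these markers in the genotype differences was not tested. A summed level of 4 heart genes (Myh6, Actc1, Tnnt2 and Myl2) of 76 to 113 CPM was found in 6 liver libraries, of which 4 were AL KO, 1 was AL WT and 1 TRF WT, against 0.3 to 2.3 CPM in the others.

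Whether the time difference itself depended on genotype was tested by the interaction, the time difference in KO minus that in WT. Under TRF 1 member was called, Stard4 (log2 0.96 ± 0.18, edgeR adjusted p 0.0416), against 0.0556% of all genes (0.0347% higher and 0.0208% lower), and the call was lost without library 1, 2, 10, 12, 20, 29, 55, 64 or 73, edgeR adjusted p 0.0537 to 0.0989, and was also lost without the 3-digit libraries. Under AL 2 members were called, against 1.56% of all genes, and 12 had an unadjusted p under 0.05 (11.4% of all genes). They were Hmgcs1 (log2 1.99 ± 0.49, edgeR adjusted p 0.0437), lost on leaving out any AL library but number 56 (edgeR adjusted p 0.0616 to 0.134), and Insig2 (log2 1.81 ± 0.33, edgeR adjusted p 0.00369), lost without the 3-digit libraries. DESeq2 called 3 under AL and 1 under TRF, and edgeR on the compared groups alone called 10 under AL and 0 under TRF. For the members called in none of these fits, a time difference called in AL WT and not in AL KO was not shown to differ between genotypes.

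Whether the time difference depended on feeding was tested within each genotype. In KO livers it was higher under TRF than under AL for 17 members and lower for 0, against 5.24% and 5.9% of all genes, with the largest interactions for Hmgcs1 (log2 2.38 ± 0.46, edgeR adjusted p 0.00181), Insig2 (log2 2.29) and Idi1 (log2 2.22). Without the 3-digit libraries 9 were called. In WT livers it was higher under TRF for 18 members and lower for 1, Stard4 (log2 -0.70), against 11.9% and 13.1% of all genes. The largest were Insig2 (log2 3.77 ± 0.34, edgeR adjusted p 2.47e-08), Mvd (log2 3.72 ± 0.54, edgeR adjusted p 3.74e-05) and Hmgcs1 (log2 3.44 ± 0.50, edgeR adjusted p 3.74e-05). Without the 3-digit libraries 17 were called in WT, and Idi1 and Stard4 were not.

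The clock gene Arntl was high at opposite times under the 2 feedings in WT livers. It ranged over 27.0 to 33.8 CPM at CT12 and 1.70 to 2.46 CPM at CT0 in TRF WT, and over 3.34 to 3.46 CPM at CT12 and 27.7 to 31.5 CPM at CT0 in AL WT. In KO livers it ranged over 26.4 to 36.6 CPM at CT12 and 1.02 to 1.92 CPM at CT0 under TRF, and over 25.4 to 32.1 CPM at CT12 and 35.4 to 39.9 CPM at CT0 under AL. In TRF KO, TRF WT and AL WT livers the time of the higher enzyme sum was that of the higher Arntl. WT livers were therefore also compared between feedings where Arntl was high in both or low in both, a pairing chosen with these Arntl levels known. In the low pair the Arntl ranges did not overlap, and AL was higher. At high Arntl (TRF CT12 minus AL CT0), 0 members were higher and 3 lower, against 0.813% and 1.03% of all genes (1.84% in either direction). At an unadjusted p under 0.05, 9 were lower and 0 higher, against 9.11% and 9.52% of all genes, and 12 were lower and 0 higher with no overlap of libraries, against 8.97% and 8.31%. The members' median log2 difference was -0.32, and that of all genes 0.01. The members called were Msmo1 (log2 -1.09 ± 0.26, edgeR adjusted p 0.0285), Hsd17b7 (log2 -0.71) and Stard4 (log2 -0.64). This count was 9 without library 11, 0 without library 12, library 38 or the 3-digit library of AL WT at CT0, and 0 without all 3-digit libraries. At low Arntl (TRF CT0 minus AL CT12), of the 2 members called Scap was higher (log2 0.66) and Lbr lower (log2 -0.83), against 4.4% and 3.42% of all genes (7.83% in either direction), with 1 called without library 2, 3 or 47 or the 3-digit library of AL WT at CT12, and 0 without all 3-digit libraries. At an unadjusted p under 0.05, 7 were lower and 1 higher here, against 11.5% and 12.8% of all genes, and with no overlap of libraries 7 were lower and 3 higher, against 14.7% and 14.6%.

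**Figure D4:**
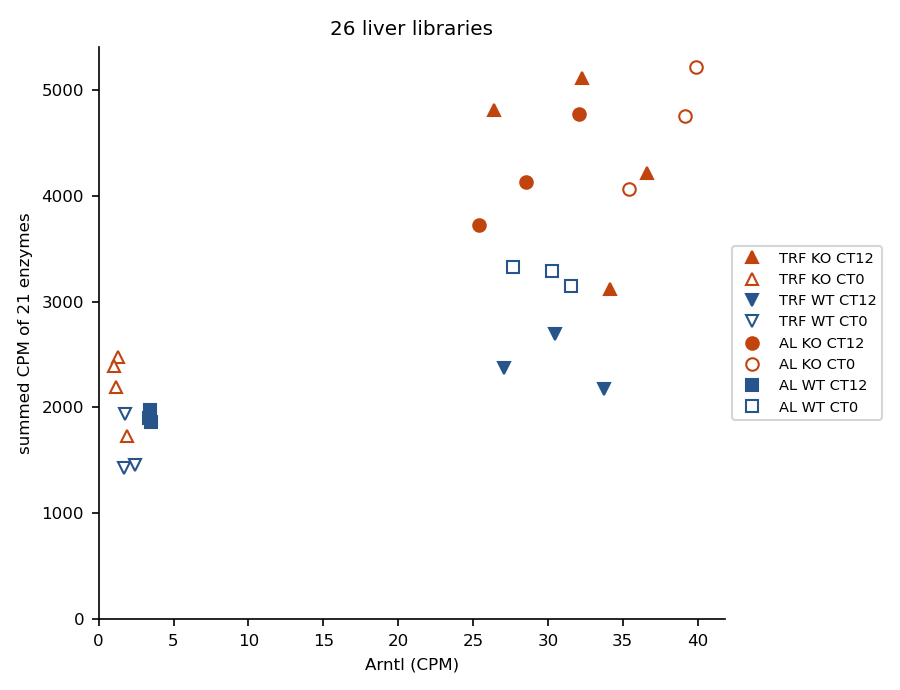
Summed CPM of the 21 enzymes (y axis) against Arntl CPM (x axis) in the 26 liver libraries, marked by feeding, genotype and time. The 3 AL WT libraries at CT12 lie at low Arntl with sums of 1864 to 1979 CPM, while the AL KO libraries of both times lie at high Arntl with sums of 3726 CPM or more.

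In heart most of the enzymes were expressed at a lower level than in liver, and the time pattern of the liver did not recur. Ggps1 and Lbr were higher, with medians of 11.2 and 18.6 CPM in heart against 5.75 and 10.0 CPM in liver. The enzyme sum was 224 to 264.5 CPM in every heart group other than AL WT at CT12, where it was 289.6, 367 and 290.5 CPM. Fdps was not tested because its counts were too low. In TRF KO hearts 0 members rose and 2 fell at CT12, Acat2 (log2 -0.60) and Fdft1 (log2 -0.27), against 1.74% and 1.48% of all genes, and 0 were called without the 3-digit libraries, without 55 and 64 together, or without library 20, 29, 30 or 64 alone, with 1 called without library 21, 28, 55 or 73. In TRF WT hearts 0 rose and Insig1 fell (log2 -0.72 ± 0.16, edgeR adjusted p 0.0132; lost without library 2 or 12, edgeR adjusted p 0.0502 to 0.105), against 2.21% and 2.17% of all genes. With library 11 left out 3 members were called. Insig1 thus fell at CT12 in TRF WT hearts and rose in TRF WT livers. In AL KO hearts 0 were called by edgeR or DESeq2 (3 at an unadjusted p under 0.05 and 7.04% of all genes), against 0.171% of all genes (0.0183% higher and 0.152% lower). A summed level of 4 liver genes (Alb, Apoa1, Ttr and Cyp2e1) was 2.01 to 4.81 CPM at CT12 in TRF WT hearts and 183 to 234 CPM at CT0, and 0.719, 0.585, 0.793 and 0.300 CPM at CT12 and 0.448, 189, 225 and 0.810 CPM at CT0 in TRF KO hearts, and its part in these falls was not tested.

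In AL WT hearts 15 of the 25 tested members rose at CT12 and 2 fell, against 23.1% and 17.2% of all genes (40.3% in either direction). Sqle rose most, with 6.88, 20.0 and 7.52 CPM at CT12 and 1.34, 1.94 and 1.03 CPM at CT0 (log2 2.98 ± 0.41, edgeR adjusted p 2.40e-06), followed by Acat2 (log2 1.33), Lss (1.32), Msmo1 (1.19) and Idi1 (1.10). Lbr (log2 -0.38) and Insig2 (log2 -0.23) fell. These 3 AL WT libraries at CT12 also held transcripts of brain cells. The summed level of 6 oligodendrocyte genes was 478, 1348 and 479 CPM in them, against 17.6 to 34.6 CPM in the other heart libraries, that of 3 neuron genes 141, 408 and 139 CPM, against 3.15 to 8.48 CPM, and that of 3 astrocyte genes 60.5, 185 and 66.8 CPM, against 3.32 to 6.63 CPM. All 12 of these genes were called higher. The highest Sqle level in heart, 34.0 times the lowest, was in library 48, which also held the most brain transcript and in which mitochondrial genes took 34.2% of counts, against 7.76% to 13.6% in the other heart libraries. Without library 48, 9 members were called. The part of the brain transcripts and of the mitochondrial share in the heart result was not tested.

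The genotype difference in AL hearts, averaged over times, carried the same libraries. In KO hearts 0 members were higher and 7 lower than in WT hearts, against 6.34% and 12.2% of all genes, led by Sqle (log2 -1.42 ± 0.30, edgeR adjusted p 0.00145) and Acat2 (log2 -0.89). The others were Msmo1, Aacs, Nsdhl, Srebf2 and Pmvk, and of the 12 brain genes 11 were lower in KO. At CT0 alone, where no library held brain transcripts at such levels, 1 member was called, Lss, and it was higher in KO (log2 0.70, edgeR adjusted p 0.00919), while 5 of the 7 had differences above 0. The count over both times was 4 without library 56, or without the 3-digit KO library of either time. Under TRF, 0 members were called between genotypes in heart by edgeR or DESeq2 (2 at an unadjusted p under 0.05 and 18.4% of all genes), against 2.76% of all genes.

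In SCN 0 members were called in any of the 6 comparisons by edgeR or DESeq2. At an unadjusted p under 0.05 there were 2 in TRF KO, 7 in TRF WT, 0 in AL KO and 2 in AL WT over time, 4 between genotypes under TRF and 1 under AL, against 6.28%, 11.7%, 2.03%, 4.44%, 11.6% and 4.68% of all genes at that threshold. The share of all genes called was 0% in TRF KO, 0.0165% in TRF WT, 0% in AL KO and 0.0276% in AL WT over time, and 0.00551% (TRF) and 0% (AL) between genotypes. In TRF WT SCN the libraries of CT12 lay below all of CT0 for 8 members (Acat2, Aacs, Hmgcs1, Mvk, Fdft1, Nsdhl, Hsd17b7 and Scap) and above them for 2 (Sc5d and Insig2), where this was so for 8.16% and 7.83% of all genes. In TRF KO this was so for 1 member lower (Acat2; 6.18% of all genes) and in AL WT for 1 higher (Sc5d; 5.79% of all genes). Ttr, a gene of liver and of the choroid plexus of the brain, stood far above the rest in 4 SCN libraries, with 1467 and 2441 CPM in TRF WT at CT12 (libraries 11 and 12), 3486 CPM in TRF KO at CT0 (library 55) and 2352 CPM in AL WT at CT12 (library 47), against 28.8 to 552 CPM in the other 20, while Alb reached at most 0.533 CPM and Apoa1 1.09 CPM in any SCN library. These include 2 of the 3 CT12 libraries of the TRF WT comparison, and whether the member values move with Ttr was not tested. The enzyme sum stayed within 828 to 1106 CPM over all SCN libraries. In these libraries the summed level of the 6 oligodendrocyte genes was 5571 to 10141 CPM and that of the 3 neuron genes 1489 to 2113 CPM. The part of the cell content of these libraries, in which Avp also ranged widely, in the SCN result was not tested. Srebf2 measured 329, 349.6 and 360.3 CPM at CT12 in TRF KO and 343, 346 and 343 CPM at CT0, and 306, 327 and 346 CPM at CT12 in AL WT and 322, 326 and 328 CPM at CT0. Hmgcs1, which spread over 13.4 times in liver, spread over 1.62 times in SCN.

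**Figure D5:**
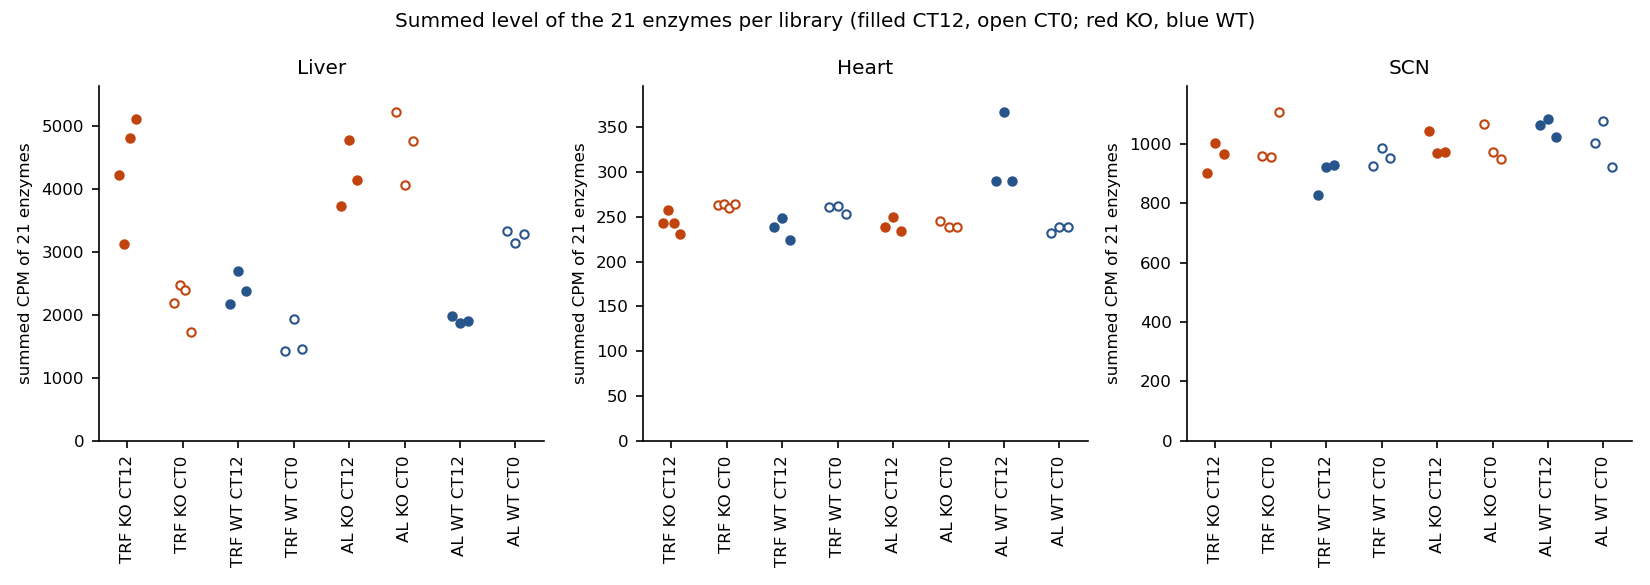
Summed CPM of the 21 enzymes per library in liver, heart and SCN, each tissue on its own y axis starting at 0, in the 8 groups. Liver sums lie between 1431 and 5215 CPM, heart sums at 264.5 CPM or less outside AL WT at CT12, and SCN sums between 828 and 1106 CPM.

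Whether the time difference itself differed between liver and heart was tested in 1 model of both tissues. In TRF KO it was higher in liver for 17 members and lower for 0, against 4.94% and 4.9% of all genes, led by Insig2 (log2 2.17 ± 0.22, edgeR adjusted p 2.24e-09), Mvd (log2 2.09), Sqle (2.08) and Hmgcs1 (1.97), and for 10 without libraries 55 and 64. In TRF WT it was higher in liver for 10 and lower for 0, against 6.83% and 4.59% of all genes, led by Mvd (log2 2.33 ± 0.45, edgeR adjusted p 5.39e-04), Insig2 (log2 1.80) and Insig1 (1.69). In AL KO 0 were called by edgeR or DESeq2 (1 at an unadjusted p under 0.05 and 4.72% of all genes), against 0.00566% of all genes. In AL WT it was lower in liver for 18 and higher for 1, Lbr, against 8.96% and 8.61% of all genes, led by Sqle (log2 -3.88 ± 0.45, edgeR adjusted p 2.69e-08) and Hmgcs1 (log2 -2.65). Without heart library 48, Cyp51, Idi1 and Lbr were not called. This comparison includes the heart libraries with brain transcripts.

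Genes beside the pathway in liver were followed through 6 other lists, whose counts over time stand beside 22% of all genes called in either direction in TRF KO, 23.1% in TRF WT, 0.0139% in AL KO and 8.99% in AL WT. Of 9 genes of cholesterol efflux, esterification and the sterol sensor LXR, 1 rose and 3 fell at CT12 in TRF KO, 2 fell in TRF WT, 0 were called in AL KO and 3 rose in AL WT. Abcg5 and Abcg8, the partners in the transporter that moves sterols into bile, were opposite in direction to most members. Their log2 differences, CT12 minus CT0, were -1.01 ± 0.16 and -0.74 ± 0.18 in TRF KO, -1.59 ± 0.19 and -1.40 ± 0.21 in TRF WT, and 1.27 ± 0.19 and 0.82 ± 0.21 in AL WT, all 6 called. Between genotypes they were higher in KO under TRF at CT12 (log2 1.01 ± 0.18 and 0.98 ± 0.20), as most members were. Of 4 electron donors of the pathway's oxidations, Por, the reductase that serves cytochrome P450 enzymes and Sqle, fell in TRF KO (log2 -2.17 ± 0.35) and TRF WT (-1.69 ± 0.40) and rose in AL WT (2.28 ± 0.41), against the direction of Sqle and Cyp51 where those were called. Cyb5b rose in TRF KO (0.71 ± 0.10) and TRF WT (0.59 ± 0.12) and fell in AL WT (-0.56 ± 0.12).

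Of 7 other genes known to respond to SREBP proteins, 3 rose and 1 fell in TRF KO and in TRF WT, 0 were called in AL KO, and 1 rose and 3 fell in AL WT. Mmab, whose promoter is shared with Mvk, changed by log2 1.04 ± 0.10 in TRF KO, 0.74 ± 0.12 in TRF WT and -0.82 ± 0.12 in AL WT. Rdh11, a retinol dehydrogenase, changed by log2 1.26 ± 0.19, 1.18 ± 0.22 and -1.40 ± 0.22 in the same order. Of 7 genes of fatty acid synthesis, 1 rose in TRF KO (Acly, log2 1.15 ± 0.30), 3 rose in TRF WT, led by Fasn (log2 2.85 ± 0.65), 0 were called in AL KO and 1 rose in AL WT, Elovl6. Of 8 genes of the isoprenoid branch, 0 were called in TRF KO, 2 rose in TRF WT, 0 were called in AL KO and 1 fell in AL WT. Of 8 genes that process SREBP or act in sterol-regulated degradation, 1 rose and 1 fell in TRF WT and 0 were called in the other 3 settings. Without the 3-digit libraries the TRF KO counts of these lists were the same, and in TRF WT the calls of Srebf1, Dhdds and Me1 were lost, which left 1 of the isoprenoid branch and 2 of fatty acid synthesis higher and 1 of the SREBP processing list lower. Without them, 2 of the 7 SREBP-responsive genes (Mmab and Rdh11), Abcg5 and Por remained called in AL WT among these lists.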

How the data were processed

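Per the labels, TRIzol was used to extract RNA, and the NEBNext Ultra II kit for the libraries. Per the submitters' processing notes, FastQC 0.11.8, STAR and mm10 (GRCm38) were used; how reads were assigned to genes, with which annotation and whether by strand, is not given in the sources used here. The authors deposited raw read counts per gene, whole numbers with 1 column per library; 38038 of 38129 identifiers (99.8%) matched GENCODE vM21, the source of exon lengths. Raw counts were not normalised by the authors.

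In each tissue, genes were kept by filterByExpr of edgeR 4.0.16 over its 8 groups (14397 in liver, 16397 in heart, 18133 in SCN, 17656 in liver and heart together). TMM-scaled counts were fitted with a group-means model and robust quasi-likelihood dispersions; p-values were adjusted by Benjamini-Hochberg over all genes tested, and a gene was called below 0.05. Standard errors are the absolute log2 difference over the square root of F. Alternatives were DESeq2 1.42.0, RLE factors, no filter, the compared groups alone, and fits without each library, without the 3-digit AL libraries, without TRF KO libraries 55 and 64 and, between liver and heart, with a block for the library number. A fit at heart CT0 alone was added after seeing the data. A fit that leaves a group of 2 uses the spread pooled over all groups of the fit. R 4.3.3 and Python 3.11.15 were used.

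All 26 members are named; 11 chosen members and those with the largest called changes are given per library, and up to 3 genes of each other list are named by smallest adjusted p. The members and lists were chosen with earlier results of these data known. Simulated counts for AL WT liver time over 14397 genes carried 1.5-fold, 2-fold and 3-fold changes in 67, 67 and 66 genes. Of these, edgeR found 32.8%, 83.6% and 97.0%. The lowest expressed genes carried no change, and all libraries were simulated as independent, so recovery in these data may differ. Recovery was lower when the AL WT time difference was compared between liver and heart, with 17.9%, 50.7% and 66.7%. At 1.5-fold it was 61.2% in heart and 74.6% in SCN.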

Additional observations from a re-analysis of the deposited data

Results flagged for a closer look

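In the groups of 4 libraries (TRF KO in liver and heart), single libraries stood far from the others of their group by Dixon's test in 8 of 104 member-by-group sets, where chance gives about 5%. In liver at CT12, library 29 was lowest in 4 of these: Mvd with 59.1 CPM, against 139 to 153 CPM in the others, Fdps with 13.8 CPM, against 33.4 to 34.0 CPM, Lss with 134 CPM, against 248 to 261 CPM, and Ebp with 267 CPM, against 326 to 332 CPM. In liver at CT0, Fdft1 was lowest in library 55 with 134 CPM, against 178 to 183 CPM. In heart at CT0, Mvd was highest in library 55 with 11.3 CPM, against 10.9 to 11.0 CPM, and Nsdhl in library 21 with 6.45 CPM, against 5.04 to 5.27 CPM. In heart at CT12, Scap was highest in library 64 with 53.0 CPM, against 49.4 to 49.9 CPM.

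Interactions test whether an effect differs between groups, and flagged counts of members past the adjusted threshold of edgeR were 1 for genotype by time under TRF, 2 for genotype by time under AL, 17 for feeding by time in KO livers and 19 in WT livers, and for liver against heart 17 in TRF KO, 10 in TRF WT and 19 in AL WT. Under the genotype by time interaction, Stard4 differed by log2 0.96 under TRF, and Hmgcs1 by 1.99 and Insig2 by 1.81 under AL. Under feeding by time, Hmgcs1, Idi1 and Insig2 differed by log2 2.38, 2.22 and 2.29 in KO livers, and Hmgcs1, Mvd, Insig2 and Stard4 by 3.44, 3.72, 3.77 and -0.70 in WT livers. For the time difference in liver against heart, Insig2 and Hmgcs1 differed by log2 2.17 and 1.97 in TRF KO, Mvd and Insig2 by 2.33 and 1.80 in TRF WT, and Sqle and Lbr by -3.88 and 0.71 in AL WT. The last pair includes the heart libraries with brain transcripts, and their part was not tested.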

How the results depend on the processing

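Over 211 gene results and 3161 alternative values, 2749 kept their direction and side of the threshold, 5 reversed and the rest lost the call; of 431 alternative counts, 345 were within 1.5 times the reported one. For KO minus WT in liver, 0 members were called under AL at CT0 without the 3-digit libraries, 2 with no filter and 15 with the compared groups alone (reported 7); 1 under TRF at CT12 with the compared groups alone and 10 without the 3-digit libraries (15); 3 under TRF at CT0 by DESeq2 and 2 without libraries 55 and 64 (0). Over time in AL WT livers 5 were called without the 3-digit libraries (17). The genotype by time interaction gave 0 under TRF without the 3-digit libraries, without 55 and 64 and with compared groups alone (1), and under AL 1 with no filter, 10 with compared groups alone and 0 without the 3-digit libraries (2). Feeding by time in KO gave 9 without the 3-digit libraries (17). TRF CT12 minus AL CT0 gave 0 without the 3-digit libraries, 0 with compared groups alone and 5 by DESeq2 (3), and TRF CT0 minus AL CT12 gave 0, 7 and 4 (2). Heart over time gave 8 in AL WT (17) and 2 in TRF WT (1) with compared groups alone, and in TRF KO 1 with RLE factors and 0 with no filter, without the 3-digit libraries, without 55 and 64 or with compared groups alone (2). KO minus WT in AL hearts gave 4 without the 3-digit libraries, 4 with compared groups alone and 1 at CT0 alone (7), where Aacs (0.098), Pmvk (0.052), Sqle (0.27), Msmo1 (0.22) and Srebf2 (0.27) reversed on the log2 scale. Liver against heart in TRF KO gave 10 without 55 and 64 (17). The cause of these changes was not tested.

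With each library left out in turn, counts in liver over time ranged over 19 to 22 in TRF KO, 10 to 17 in TRF WT, 0 to 0 in AL KO and 11 to 15 in AL WT. KO minus WT ranged over 8 to 17 (TRF CT12), 0 to 2 (TRF CT0), 20 to 21 (AL CT12) and 0 to 3 (AL CT0). Genotype by time ranged over 0 to 1 under TRF and 1 to 2 under AL, feeding by time over 16 to 20 in KO and 18 to 19 in WT, TRF CT12 minus AL CT0 over 0 to 9 and TRF CT0 minus AL CT12 over 1 to 2. Heart over time ranged over 0 to 1 in TRF KO, 0 to 3 in TRF WT, 0 to 0 in AL KO and 9 to 19 in AL WT, and KO minus WT in heart over 0 to 0 under TRF and 4 to 9 under AL. The SCN counts were 0 throughout. Liver against heart ranged over 14 to 18 in TRF KO, 8 to 13 in TRF WT, 0 to 0 in AL KO and 17 to 20 in AL WT.

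A correlation of deviations over 0.1 in every pair was the bar for pairing liver and heart libraries by number, and it was not met. Missing it does not show whether libraries of the same number came from the same animal. Over 26 pairs the correlation ran from -0.203 to 0.157 with a median of 0.0208, and 5 were over 0.1. Of the liver libraries, 13 correlated best with their own number. The 4 TRF KO pairs at CT12 were an exception, with 0.111 to 0.157, each highest with its own number, a hint from the data and not the design. All 3 pairs of TRF WT at CT0 (0.0344 to 0.0984) and of AL KO at CT12 (0.00591 to 0.0774) were also highest with their own number, below 0.1. With the replicate block the liver against heart counts were 17 in TRF KO (16 shared; Lbr lost its call, edgeR adjusted p 0.0652), 10 in TRF WT, 0 in AL KO and 19 in AL WT.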
